A study of Mus musculus with 8 samples.

Results

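The surface molecules through which antigen-presenting cells pass activating or restraining signals to T cells and natural killer cells were compared between the main subsets of mouse blood monocytes. The genes considered were the B7 family ligands Cd80, Cd86, Icosl, Cd274 (PD-L1) and Pdcd1lg2 (PD-L2), the costimulatory receptor Cd40, the activation marker Cd83, and Cd48, Cd84 and Cd244 of the SLAM family. Every probe set whose platform annotation gave exactly one of these 10 symbols was taken. This found 17 probe sets for 9 genes, of 18193 genes named by a single symbol on the array. No probe set carried the symbol Cd244. The annotation lists that gene under its current symbol, Cd244a, with the same Entrez identifier (18106), and its 2 probe sets are given beside the others but are not in their counts.

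Monocytes were sorted from the blood of C57Bl/6 mice, 12 weeks old, as Gr1hi (Ly6Chi) or Gr1lo (Ly6Clo) cells; no treatment or genetic change is named for either subset. Leukocytes of 5 mice were pooled for each sort, and 4 sorts gave 4 samples of each subset, so that a sample is a pool and not a single animal. RNA from each sample was read on an Affymetrix array of its own, with probes near the 3' end of transcripts. Values are probe set intensities on the log2 scale, and differences are Ly6Clo minus Ly6Chi.

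The array medians lay between 80.5 and 83.0 in intensity. Of 45037 probe sets, 22831 passed the filter on dim signal, which asked for an intensity over the table's median (81.9, log2 6.36) in at least 4 of the 8 arrays. A probe set was called when its Benjamini-Hochberg adjusted p, over all tested probe sets, was under 0.05 (limma). Monocyte markers were bright in both subsets, with Csf1r, the receptor for the growth factor CSF1, at 13.86 and 14.06 (means of Ly6Chi and Ly6Clo) and lysozyme, Lyz2, at 14.46 and 14.22. All 13 on the list were over the table's median in the mean of either subset, and 11 were called, 5 toward Ly6Clo and 6 toward Ly6Chi; the transcription factor Cebpa (-1.28), the Fc receptor Fcgr1 (-1.22) and the endotoxin co-receptor Cd14 (-1.12) differed most. The subset markers followed the labels: all 6 measured Ly6Chi markers, among them Ccr2 and Chil3, were called higher in Ly6Chi (Vcan passed the filter through those arrays alone), and 9 of 10 Ly6Clo markers, among them Nr4a1 and Itgal, were called higher in Ly6Clo. What is generally known of these markers comes in part from profiles of the same subsets, so they are no independent check.

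T cells need a signal from the antigen receptor and a second signal from the presenting cell. CD80 and CD86 give that signal through CD28 and are also bound by the inhibitory receptor CTLA-4, ICOSL acts through ICOS, and the PD-1 ligands PD-L1 and PD-L2 restrain T cells that carry PD-1. CD40 receives a signal in the other direction, from CD40 ligand on helper T cells, and raises the costimulatory state of the presenting cell. CD83 marks mature dendritic cells and stabilises CD86 and MHC class II at the surface. SLAM receptors are mostly self-binding molecules that signal through SAP-type adaptors, with CD48 as the partner of CD244.

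The molecules did not move as a block. Cd83 and both PD-1 ligand genes were higher in Ly6Clo monocytes, while Cd40 and Cd84 were higher in Ly6Chi monocytes. Cd80, Cd86, Icosl and Cd48 were not called. Cd244a, from outside the symbol rule, was higher in Ly6Clo. Of the 17 probe sets 13 were tested, and the other 4 (2 of Cd80, 1 of Icosl and 1 of Cd84) were under the table's median in every array. Of the 13, 7 were called (53.8%), 3 toward Ly6Clo and 4 toward Ly6Chi. Among all tested probe sets 31.1% were called, 15.2% toward Ly6Clo and 15.9% toward Ly6Chi. Non-overlapping subsets were seen for the same number, 7 of 13, against 31.8% of all tested probe sets. With 1 probe set per gene, the brightest tested one, 5 of 9 genes were called against 32.5% of all tested genes. The median size of the difference, whatever its direction, was 0.61 over the 13 probe sets and 0.13 over all tested ones. Differences of at least 2-fold were called for 4 of the 13 and for 3.51% of all. These counts are descriptions only, because the members were chosen with earlier results of these data known. The 3 probe sets of Cd40 also share a gene, and Pdcd1lg2 was tested only because it was over the median in the Ly6Clo arrays. Without any filter the same number of the 17 probe sets, 7, was called.

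**Figure D1:**
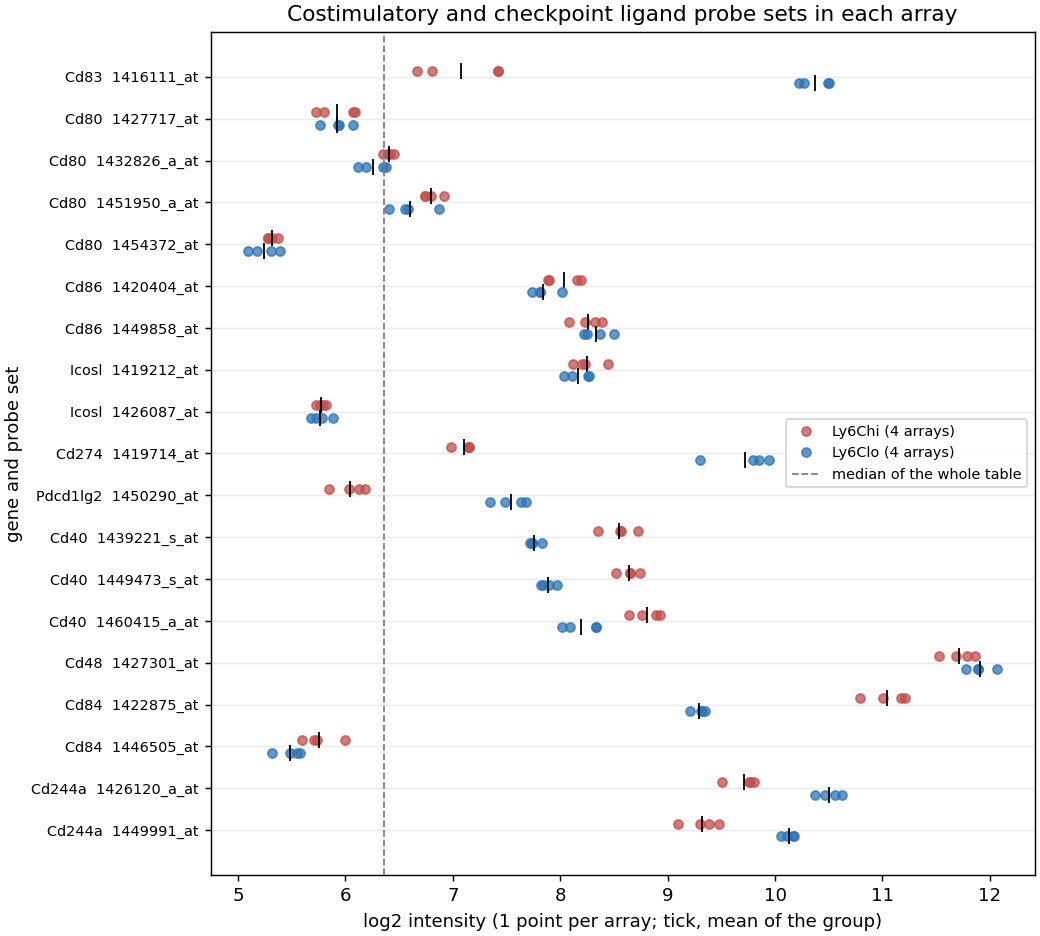
Log2 intensity (x axis) of each ligand probe set (y axis) in the 4 Ly6Chi arrays (red) and the 4 Ly6Clo arrays (blue), with black ticks at the group means and a dashed line at the table's median, log2 6.36. Cd83, Cd274 and Pdcd1lg2 lie apart toward Ly6Clo, Cd40 and the bright Cd84 probe set toward Ly6Chi, and Cd80, Cd86, Icosl and Cd48 overlap.

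Cd83 had the largest difference of the set. Its probe set, 1416111_at, read 7.42, 6.66, 6.81 and 7.42 in Ly6Chi samples 1 to 4 and 10.27, 10.50, 10.49 and 10.22 in Ly6Clo samples 1 to 4. Every Ly6Clo sample lay over 2 log2 units above every Ly6Chi sample, and the Ly6Chi samples fell into a brighter and a dimmer pair. The difference was 3.29 (SE 0.16, 95% interval 2.93 to 3.65, limma adjusted p = 6.4e-08), or 9.79-fold. Only 18 of the 22831 tested probe sets differed more in the same direction. Over the 8 arrays the genes whose levels were most like those of Cd83 were Nr4a1, the orphan nuclear receptor that Ly6Clo monocytes need (Pearson r = 0.9992), Smpdl3b, a membrane-bound phosphodiesterase (r = 0.9987), and the unnamed transcript 4833407H14Rik (r = 0.9984). These were taken from 11536 genes, and the points share the split into subsets, which makes up most of such an r. In bulk samples such as these, fewer cells that express a gene and less RNA per cell cannot be told apart.

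Cd83 and Nr4a1 are both known as rapidly inducible genes, so the immediate early genes, which handling of cells can raise, are given beside Cd83. Of 18 tested, 7 were called toward Ly6Clo and 2 toward Ly6Chi, and the median difference was 0.14 against -0.01 over all genes. The AP-1 subunit gene Jun was 3.03-fold higher in Ly6Clo (log2 difference 1.60; its second probe set gave 0.77) and Nr4a1 2.35-fold, while Fos, the partner of Jun, was 4.75-fold and the stress factor Atf3 1.77-fold higher in Ly6Chi. The summed intensity of all 21 on the array was 17878 to 21696 in the Ly6Chi arrays and 23440 to 26786 in the Ly6Clo arrays. Such a sum is weighted to bright genes. Nr4a1, also on the Ly6Clo marker list, was the brightest (mean 11.58 in Ly6Chi and 12.81 in Ly6Clo), and 9 of the 18 tested genes were not called. The part of the immediate early genes in the Cd83 difference was not tested.

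**Figure D2:**
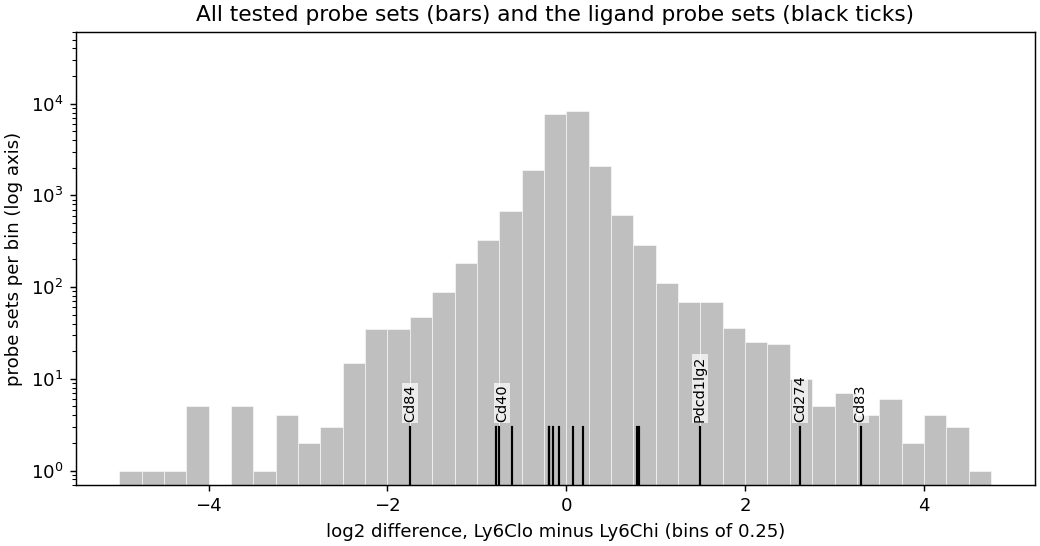
Number of probe sets (y axis, log scale) by log2 difference between Ly6Clo and Ly6Chi (x axis, bins of 0.25) over the 22831 tested probe sets, with black ticks for the 13 tested ligand probe sets and the 2 of Cd244a. Cd83 at 3.29 and Cd274 at 2.61 lie in the thin right tail, Cd84 at -1.75 in the left one, and the tick cluster near 0 holds Cd80, Cd86, Icosl and Cd48.

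Both genes for ligands of PD-1 were higher in Ly6Clo monocytes. Cd274 (PD-L1, probe set 1419714_at) read 7.15, 7.14, 6.99 and 7.15 in Ly6Chi samples 1 to 4 and 9.79, 9.94, 9.85 and 9.30 in Ly6Clo samples 1 to 4. The Ly6Chi samples were nearly alike, Ly6Clo sample 4 was the lowest of its group, and the subsets were far from overlapping. The difference was 2.61 (SE 0.12, 95% interval 2.35 to 2.88, limma adjusted p = 3.9e-08), or 6.13-fold, and 36 tested probe sets differed more toward Ly6Clo. Pdcd1lg2 (PD-L2, probe set 1450290_at) read 5.85, 6.03, 6.18 and 6.12 in Ly6Chi samples 1 to 4, all under the table's median. In Ly6Clo samples 1 to 4 it read 7.64, 7.49, 7.68 and 7.35, all over that median. The difference was 1.49 (SE 0.09, limma adjusted p = 3.5e-07). With the median standing in for background, Pdcd1lg2 was at least 2.27-fold higher in Ly6Clo. It passed the filter through the Ly6Clo arrays alone; fitted with no filter on all 45037 probe sets, the difference was the same and the limma adjusted p was 2.0e-07.

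Cd274 and Pdcd1lg2 are neighbours on chromosome 19, with no protein-coding gene between them in the RefSeq annotation. Because these neighbouring genes were both higher in Ly6Clo, the 250 bases before the annotated start of each are shown (RefSeq promoter table, GRCm38.p6, plus strand, 5′ to 3′; Cd274 chr19:29367188-29367437 and Pdcd1lg2 chr19:29410669-29410918). Capitals mark a GC box, the letters GGGCGG on either strand.
Cd274: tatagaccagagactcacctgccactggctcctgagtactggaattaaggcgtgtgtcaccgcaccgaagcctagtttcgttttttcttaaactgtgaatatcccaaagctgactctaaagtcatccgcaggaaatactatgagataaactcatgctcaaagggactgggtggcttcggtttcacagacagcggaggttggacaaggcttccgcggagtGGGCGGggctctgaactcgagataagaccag
Pdcd1lg2: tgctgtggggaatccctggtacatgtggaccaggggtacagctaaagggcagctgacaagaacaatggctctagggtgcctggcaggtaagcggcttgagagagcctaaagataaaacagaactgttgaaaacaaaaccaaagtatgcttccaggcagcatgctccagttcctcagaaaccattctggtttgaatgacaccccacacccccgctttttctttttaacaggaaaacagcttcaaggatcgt
The Cd274 stretch held 1 GC box, starting 31 bases before the start, and 11 CpG dinucleotides, while the Pdcd1lg2 stretch held no GC box and 3 CpG; the median over all 32851 promoters was 6 CpG, and 32.7% held a GC box. The other motifs were searched on both strands in the same window: GGG and TTTCC with any 2 bases between for NF-kB (in 1.41% of all promoters), GAAA and GAAA with any 2 bases between for interferon regulatory factors (2.98%), TTCNNNGAA for STAT factors (7.02%) and TATAAA (12.4%). None of these letters occurred in the windows of the 7 genes that matched the table, Cd274, Pdcd1lg2, Cd48, Cd80, Cd84, Icosl and Cd244a. Motif forms with other spacings or other letters, for NF-kB and STAT factors among them, were not searched. Cd40, Cd83 and Cd86 were not matched. The GC box and TATAAA were added after the sequences had been seen, and a match or its lack in this window says nothing of a factor's binding.

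**Figure D3:**
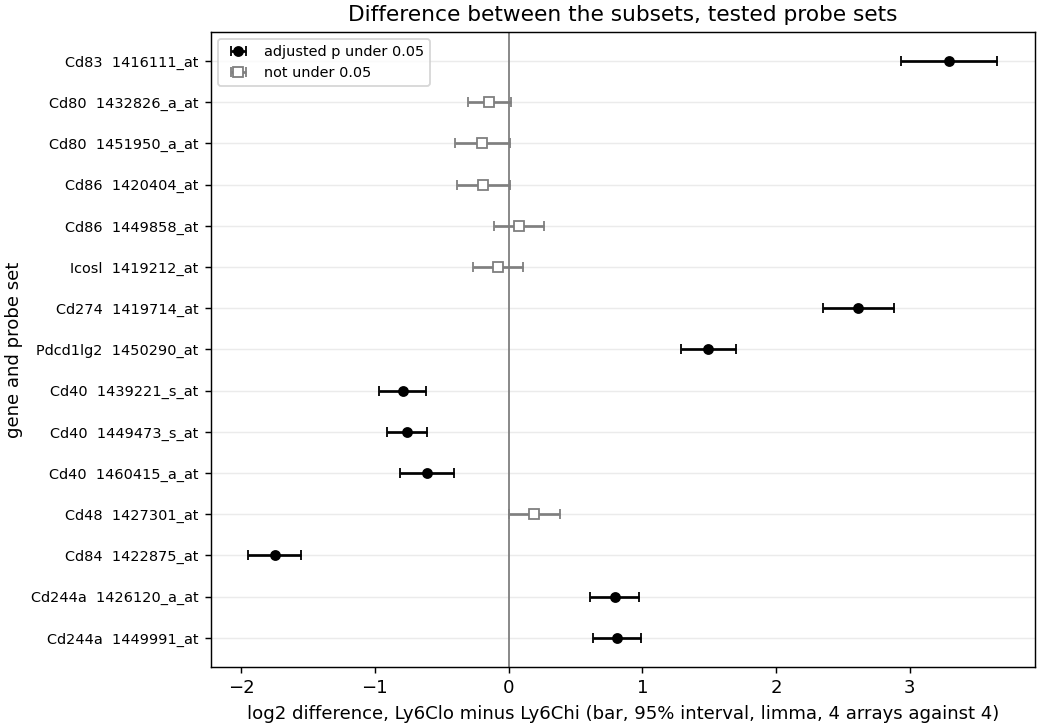
Log2 difference between Ly6Clo and Ly6Chi (x axis) for each tested ligand probe set and the 2 of Cd244a (y axis), with 95% intervals from limma on 4 arrays against 4. Filled circles passed an adjusted p of 0.05 and open squares did not; the 3 Cd40 intervals overlap one another.

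The ligands of CD28 and ICOS showed no called difference. Of the 4 probe sets of Cd80, 1451950_a_at was the only one over the table's median in all arrays. It read 6.74, 6.92, 6.80 and 6.74 in Ly6Chi samples 1 to 4 and 6.41, 6.87, 6.56 and 6.58 in Ly6Clo samples 1 to 4. All but 1 of the Ly6Clo samples lay below the Ly6Chi samples, by little (difference -0.20, SE 0.09, limma adjusted p = 0.14). Without Ly6Clo sample 2 this probe set was called, at -0.29 (limma adjusted p = 0.016; 0.016 to 0.35 over the alternative settings). The second tested Cd80 probe set, 1432826_a_at, sat at the table's median, 6.40 ± 0.04 in Ly6Chi and 6.26 ± 0.13 in Ly6Clo (mean ± SD, n = 4 each; limma adjusted p = 0.17). The 2 dim ones stood at 5.92 and 5.31 in Ly6Chi and 5.93 and 5.25 in Ly6Clo, so that Cd80 signal was near or under the table's median in either subset.

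Cd86 was over the median in all 8 arrays with both of its probe sets. Probe set 1420404_at read 8.15, 8.20, 7.89 and 7.90 in Ly6Chi samples 1 to 4 and 7.81, 8.01, 7.81 and 7.74 in Ly6Clo samples 1 to 4 (difference -0.19, 95% interval -0.39 to 0.01, limma adjusted p = 0.15). Probe set 1449858_at stood at 8.26 ± 0.13 and 8.33 ± 0.13 (mean ± SD, n = 4 each; difference 0.08, 95% interval -0.11 to 0.27, limma adjusted p = 0.56). The 2 probe sets thus leaned in opposite directions, neither beyond the spread between samples, and both intervals left no room for a 2-fold difference. Icosl (1419212_at) read 8.45, 8.23, 8.20 and 8.12 in Ly6Chi samples 1 to 4 and 8.26, 8.26, 8.04 and 8.11 in Ly6Clo samples 1 to 4. The samples were mixed, with a difference of -0.08 (95% interval -0.27 to 0.11, limma adjusted p = 0.54), and the second Icosl probe set was dim, at 5.78 and 5.77.

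Cd40 was higher in Ly6Chi monocytes with each of its 3 probe sets. Probe set 1460415_a_at, the brightest of them, read 8.93, 8.64, 8.76 and 8.89 in Ly6Chi samples 1 to 4 and 8.34, 8.02, 8.33 and 8.09 in Ly6Clo samples 1 to 4. The difference was -0.61 (SE 0.09, 95% interval -0.81 to -0.41, limma adjusted p = 3.7e-04), or 1.53-fold. Probe set 1439221_s_at stood at 8.55 ± 0.15 in Ly6Chi and 7.76 ± 0.05 in Ly6Clo, and 1449473_s_at at 8.64 ± 0.09 and 7.88 ± 0.07 (mean ± SD, n = 4 each), or 1.73-fold and 1.69-fold (limma adjusted p = 1.4e-05 and 5.5e-06). No Ly6Clo sample reached any Ly6Chi sample with any of the 3. The suffix of the last 2 marks probes that can match several transcripts; the first, whose suffix marks transcripts of the same gene, gave the smallest difference.

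The SLAM family genes were divided. Cd84, a self-binding receptor of leukocytes and platelets, read 11.17, 10.79, 11.01 and 11.21 in Ly6Chi samples 1 to 4 and 9.35, 9.32, 9.31 and 9.21 in Ly6Clo samples 1 to 4 (probe set 1422875_at). The Ly6Clo samples were tightly grouped and all lay over 1 log2 unit below the Ly6Chi samples. The difference was -1.75 (SE 0.09, 95% interval -1.94 to -1.55, limma adjusted p = 8.6e-08), or 3.36-fold higher in Ly6Chi, and 109 tested probe sets differed more in that direction. The other Cd84 probe set, 1446505_at, was under the median throughout, at 5.76 and 5.48. The genes most like Cd84 over the 8 arrays were the aldehyde dehydrogenase Aldh2 (Pearson r = 0.9969), the histone variant H2az1 (r = 0.9968) and the spliceosome gene Snrpb2 (r = 0.9966), with the same limit as for Cd83.

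Cd48, a GPI-anchored protein found on most leukocytes, read 11.79, 11.52, 11.69 and 11.86 in Ly6Chi samples 1 to 4 and 11.89, 11.78, 12.07 and 11.89 in Ly6Clo samples 1 to 4 (1427301_at). The groups overlapped, and the difference of 0.19 (unadjusted 95% interval 0.0012 to 0.38) was not called (limma adjusted p = 0.12). Its receptor gene Cd244a read 9.77, 9.81, 9.76 and 9.51 in Ly6Chi samples 1 to 4 and 10.47, 10.63, 10.37 and 10.55 in Ly6Clo samples 1 to 4 (1426120_a_at). Every Ly6Clo sample was above every Ly6Chi sample (difference 0.79, SE 0.08, limma adjusted p = 2.1e-05), and the second probe set, 1449991_at, gave 0.81 (SE 0.08, limma adjusted p = 1.6e-05), or 1.73-fold and 1.75-fold. In the RefSeq order of chromosome 1, Cd244a and Cd48 are separated by Ly9 and Slamf7, and Slamf1 lies between Cd48 and Cd84, so that genes of 1 cluster were called higher in Ly6Clo (Cd244a), higher in Ly6Chi (Cd84 and Ly9) or not called (Cd48, Slamf1 and Slamf7).

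CD244 is also a marker of natural killer cells, so markers of other blood cells are given here. Of 9 natural killer cell markers on the array, 5 were under the table's median in both subsets (Ncr1, Prf1, Eomes, Klra8 and Klre1). Of the 4 tested, 2 were called higher in Ly6Clo, the receptor chain Klrd1 (6.43 in Ly6Chi and 8.10 in Ly6Clo) and the granzyme Gzma (7.51 and 8.22), while Klrk1 stood at 8.08 and 8.14. Without a filter on dim signal, 3 natural killer cell markers were called toward Ly6Clo. The summed intensity of all 9 was 916 to 1011 in Ly6Chi arrays and 1208 to 1471 in Ly6Clo arrays. Their part in the Cd244a difference was not tested. Dendritic cell and B cell markers bear on Cd40, Cd80, Cd83 and Cd86, which those cells also express. Of 11 tested dendritic cell markers, 5 were called toward Ly6Chi and 1 toward Ly6Clo; Bst2 stood at 9.83 and 8.89, and Cd209a at 9.12 and 10.03. Also called toward Ly6Chi were Irf4 (9.36 in Ly6Chi, 8.24 in Ly6Clo), Batf3 (9.31 and 8.62), Flt3 (8.74 and 8.19) and Kmo (7.90 and 7.09). Clec10a (9.0 and 8.8) and Dpp4 (8.6 and 8.5) were bright and not called. Xcr1, which marks cross-presenting dendritic cells, did not pass the filter, nor did Itgae and Ccr9. Zbtb46, Siglech and Ccr7 stood at 6.40 to 6.77 in either subset, near the median, and were not called. The summed level of the list was 4643 to 5238 in Ly6Chi and 3801 to 4247 in Ly6Clo. Of 8 tested B cell markers, Cd79a, Ms4a1 and Vpreb3 were called higher in Ly6Chi (Cd79a and Ms4a1 with overlapping samples) and Cd22 higher in Ly6Clo, 7.99 and 9.27. The immunoglobulin gene Ighm, the brightest of the tested B cell markers, stood at 11.59 and 11.53. The summed levels overlapped, at 3913 to 5340 and 3873 to 5015, but such a sum is weighted to bright genes. The part of these cells in the result for any gene of the set, Cd274 and Pdcd1lg2 included, was not tested. T cell markers had no called gene of 10 tested (Cd3d 7.65 and 7.80, Zap70 7.99 and 8.05; 1479 to 1641 against 1530 to 1738 in sum). Platelet markers also had none of 9 (Pf4 9.60 and 9.92, Ppbp 9.91 and 10.34; 2183 to 5125 against 2478 to 6533), nor had red cell markers of 3 (Alas2 10.41 and 10.83, Slc4a1 7.46 and 7.86; 1068 to 3172 against 1139 to 4656). Neutrophil markers had 3 of 7 higher in Ly6Chi (Csf3r 10.30 and 9.74; Camp, not called, 6.98 and 6.67). Lcn2, among the 3 (limma adjusted p = 3.0e-04), passed the filter through the Ly6Chi arrays alone. Mpo was the call nearest the threshold (limma adjusted p = 0.033). Without a filter 2 neutrophil markers were called. The neutrophil sums were 2053 to 2172 in Ly6Chi and 1465 to 1587 in Ly6Clo.

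**Figure D4:**
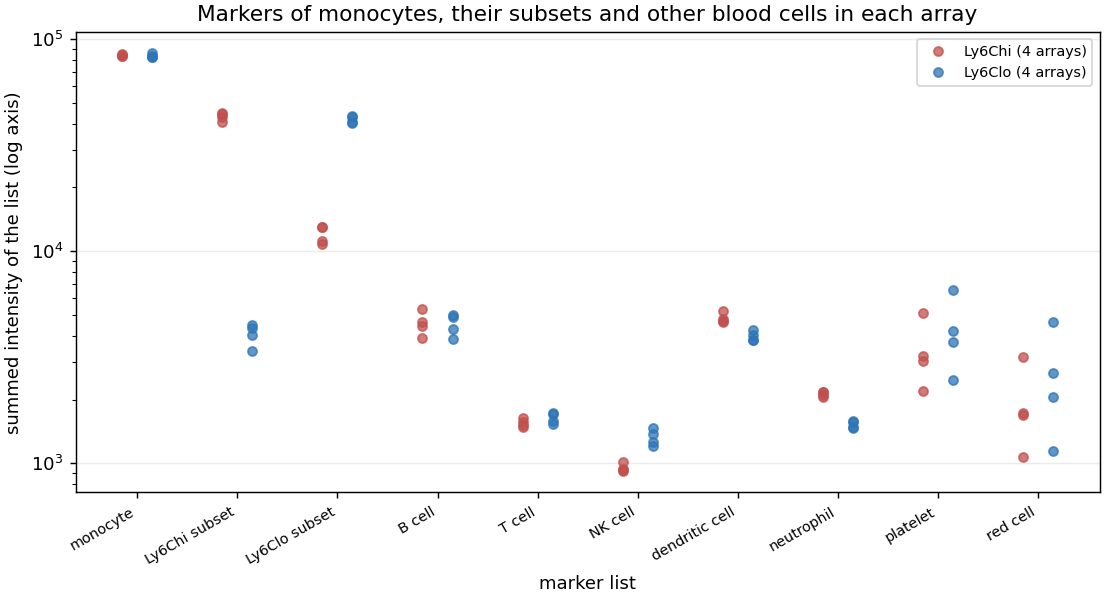
Summed intensity (y axis, log scale) of each marker list (x axis) in the 4 Ly6Chi arrays (red) and 4 Ly6Clo arrays (blue), taking the brightest probe set of each gene. The natural killer list is higher in the Ly6Clo arrays (1208 to 1471 against 916 to 1011) and the dendritic cell list in the Ly6Chi arrays (4643 to 5238 against 3801 to 4247), while the B cell, T cell, platelet and red cell lists overlap.

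The genes around these ligands were taken from lists written from general knowledge, but with earlier results of these data known. Their counts are given beside the 32.5% of all tested genes that were called (14.1% toward Ly6Clo, 18.5% toward Ly6Chi). Because of how the lists were chosen, these counts are descriptions only. Among 18 tested ligands of other costimulatory and inhibitory pathways, 9 were called, 3 toward Ly6Clo and 6 toward Ly6Chi; Tnfsf14, among the 6, passed the filter through the Ly6Chi arrays alone. The secreted inhibitory protein Fgl2 was 4.57-fold and galectin-9, Lgals9, a ligand of TIM-3, 3.36-fold higher in Ly6Chi (limma adjusted p = 4.7e-07 and 2.5e-06). The adhesion ligand Icam2 was 1.43-fold and the semaphorin Sema4d 1.38-fold higher in Ly6Clo. The B7 homologues Cd276 and Vsir differed by 0.02 and -0.26 and were not called. Vtcn1, another B7 homologue, was among 7 that did not pass the filter.

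Many, but not all, receptors for such ligands are best known from T cells. Of the 17 on the array, 8 did not pass the filter, Cd28, Ctla4 and Pdcd1 among them. Of the 9 tested, Havcr2 (TIM-3), which myeloid cells also carry, was 3.50-fold higher in Ly6Clo (8.17 ± 0.22 and 9.98 ± 0.07, mean ± SD, n = 4 each; limma adjusted p = 1.5e-07). The inhibitory receptor Btla was 2.06-fold and the CD200 receptor Cd200r1 1.56-fold higher in Ly6Chi. Havcr2 and its ligand gene Lgals9 thus differed in opposite directions.

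Of 12 tested genes of the rest of the SLAM family and of its signalling partners, 5 differed toward Ly6Clo and 2 toward Ly6Chi. Fyn, a kinase that the adaptor SAP recruits, was 5.00-fold higher in Ly6Clo (8.13 ± 0.09 and 10.45 ± 0.16, mean ± SD, n = 4 each, limma adjusted p = 6.8e-09), and Slamf9 was 3.62-fold higher (limma adjusted p = 5.8e-08). Slamf8, a SLAM receptor of macrophages, was 1.60-fold and Ly9 1.35-fold higher in Ly6Chi. Sh2d1a, the gene of SAP itself, did not pass the filter.

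In CD40 and NF-kB signalling, 7 of 17 tested genes were called toward Ly6Clo, the opposite direction to Cd40 itself, and 2 toward Ly6Chi. Traf1, an adaptor that NF-kB induces, was 3.00-fold higher in Ly6Clo (6.69 ± 0.32 and 8.28 ± 0.25, mean ± SD, n = 4 each; limma adjusted p = 1.3e-05), and the NF-kB inhibitor Nfkbia 1.49-fold. The CD40 adaptor Traf5 was 1.52-fold and the atypical NF-kB inhibitor family member Bcl3 1.56-fold higher in Ly6Chi.

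Interferon gamma and STAT signalling controls Cd274 in many cells. Of 18 tested genes of this pathway, 11 were called, 5 toward Ly6Clo and 6 toward Ly6Chi. The feedback inhibitor Socs3 was 2.38-fold and Stat3 1.39-fold higher in Ly6Clo, although 1 of the 3 other probe sets of Stat3 was not called (difference 0.16, limma adjusted p = 0.064). Irf4 was 2.18-fold higher in Ly6Chi (log2 difference -1.12; its second probe set gave -0.39) and Stat2 1.70-fold. Irf1, a direct activator of Cd274, differed by 0.30 and was not called (limma adjusted p = 0.25).

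Of 14 tested genes for turnover and traffic of these ligands, 5 passed toward Ly6Clo and 2 toward Ly6Chi. The tetraspanin Cd81 was 5.21-fold (limma adjusted p = 7.6e-08) and the invariant chain Cd74 2.22-fold higher in Ly6Clo. Cmtm6, which protects PD-L1 protein from degradation, was 1.48-fold higher in Ly6Chi (limma adjusted p = 8.9e-05), opposite to Cd274, and its relative Cmtm3 1.46-fold. Marchf1, the ubiquitin ligase that removes CD86 and MHC class II from the surface, differed by -0.06 and was not called (limma adjusted p = 0.49).

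**Figure D5:**
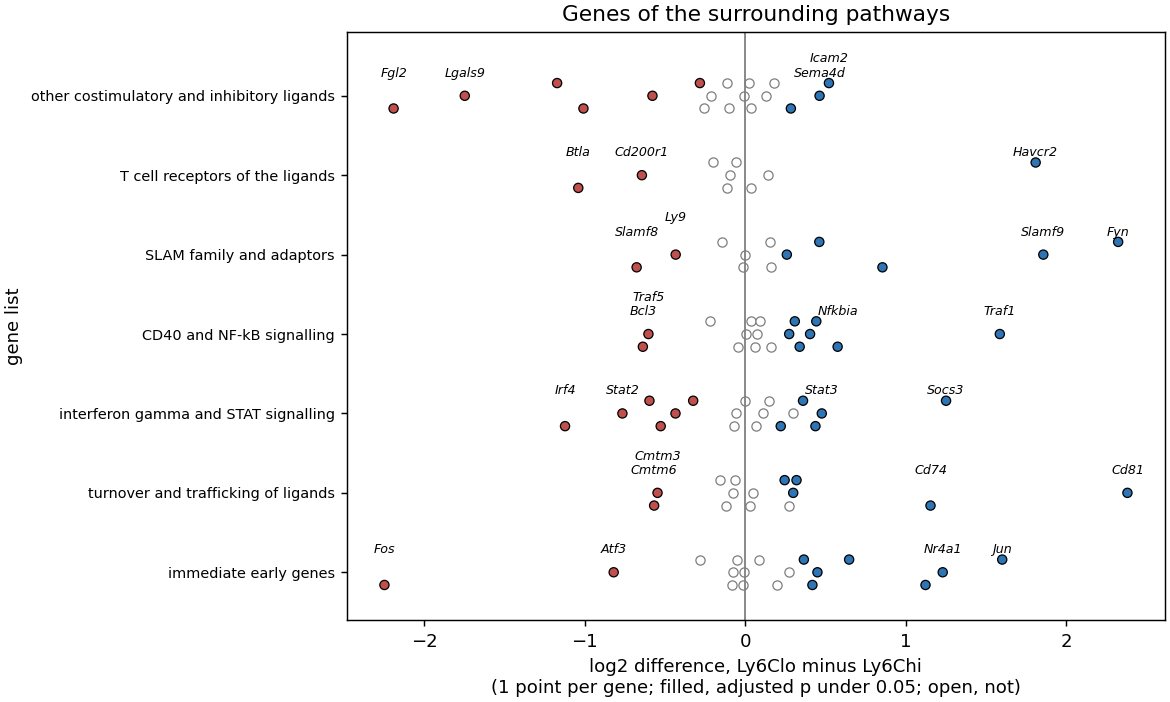
Log2 difference between Ly6Clo and Ly6Chi (x axis) for each tested gene of 7 lists (y axis), 1 point per gene; filled points passed a limma adjusted p of 0.05 (blue higher in Ly6Clo, red higher in Ly6Chi), open points did not, and named genes are the 2 with the largest called difference in each direction. Cd81 and Fyn lie farthest toward Ly6Clo and Fos and Fgl2 farthest toward Ly6Chi.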

How the data were processed

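The authors deposited 1 linear intensity (8.64 to 27146) per probe set and array. GCRMA and MAS5 are listed in the submitters' processing notes, without saying which made these values. Per the labels' protocols, in vitro transcription ran for 64 h in place of 4 h, which can alter the size of ratios. From these values, 64 array controls were left out and log2 was taken with no pseudocount. The subsets were compared with limma (version 3.58.1, R 4.3.3; lmFit, eBayes, no block, two-sided tests), with intervals at 95% and unadjusted. Where the dimmer subset's mean was under the table's median (81.9), the fold was set against that median and is a lower bound. Detection calls were not used here.

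Gene names came from the platform annotation; 34945 probe sets had 1 symbol. List genes were matched by Entrez identifier through the RefSeq gene table (GRCm38.p6), and each was represented by its brightest tested probe set. Named genes were the ligands, in each pathway list the 2 called genes with the largest difference in each direction, in each cell type list the 2 brightest, and the 3 genes most like Cd83 and Cd84; others were named after their values were seen. The members and lists were chosen with earlier results of these data known. Replicate numbers were not taken to pair the samples. The workflow was tested on simulated data. Arrays have no read depth; their number, 4 per subset, limits precision (median SE 0.08). The series text names 4 separate sorts but does not say that they were on separate days. The p-values thus set each difference against the spread between these samples.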

Additional observations from a re-analysis of the deposited data

Results flagged for a closer look

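Dixon's test for a sample far from the others in its group of 4 was applied to each of the 19 probe sets in each subset, 38 tests in all, and picked out 2 values; chance gives about 1 in 20. For Cd274, Ly6Chi sample 3 stood at 6.99 while the other Ly6Chi samples lay between 7.14 and 7.15. For Cd244a (1426120_a_at), Ly6Chi sample 4 stood at 9.51 and the others between 9.76 and 9.81. Both values lie on the far side from the Ly6Clo samples, and both calls held without the sample concerned.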

How the results depend on the processing

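All 7 called probe sets of the symbol rule and the 2 of Cd244a kept their direction and call under each alternative that tested them: the replicate block, leaving out each array or both arrays numbered 1, other filters, normalizations, offsets of 16 and 64, variance models, array weights and a threshold of 0.01. Cd83 ranged from 2.79 to 3.44, Cd274 from 2.17 to 2.76, Pdcd1lg2 from 0.94 to 1.56, Cd84 from -1.83 to -1.65 and Cd40 from -0.86 to -0.52 over its 3 probe sets. Pdcd1lg2 was not tested when the filter asked for all 8 arrays, which left 6 called probe sets. Leaving out 1 array gave 7 to 8 called probe sets of the set (4 to 5 higher in Ly6Chi, 3 higher in Ly6Clo), 5 to 6 called genes and 6229 to 6761 called probe sets in all (2881 to 3486 higher in Ly6Clo, 3150 to 3536 higher in Ly6Chi). At a threshold of 0.01, 2290 probe sets in all were called higher in Ly6Clo. With the replicate number as a block, 7 of the set and 7164 in all were called. Same-numbered samples correlated at 0.27, 0.34, -0.03 and -0.10 in their deviations from the group means, so the numbers were not taken as pairs. Ly6Chi samples 1 to 4 correlated best with Ly6Clo samples 2, 2, 4 and 3. The main fit uses no matching of the subsets by sort, though the 4 sorts gave samples of both. The block changed no call of the set. Under it the calls rose from 0 to 1 platelet marker and from 9 to 10 Ly6Clo markers toward Ly6Clo, from 3 to 4 neutrophil markers, 3 to 4 B cell markers and 2 to 3 immediate early genes toward Ly6Chi, and went from 5 to 4 interferon and STAT genes toward Ly6Clo. Intensities near the table's median carry little signal, so Cd80 and Pdcd1lg2 are limited by background.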
